A study of Ovis aries with 12 samples.

Results

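The subject here is the difference between pregnant and non-pregnant ewes that the corpus luteum showed alike on day 12 and on day 14. Members were the probe sets that passed a test of 6 pregnant against 6 non-pregnant ewes at a Benjamini-Hochberg adjusted p under 0.05 in limma. The fit held day as a block and, as a further term, the array batch described below. Their difference also had the same sign on both days, with the smaller day difference at least 0.5 of the larger. Without the batch term 2 probe sets passed. With it there were 14 members of 24016 probe sets tested, 1 higher and 13 lower in pregnant ewes. They named 9 genes (CD164, DR1, TIE1, SEC23A, PPP1R2, RAB6A, BRMS1L, SMIM14 and ATF1), with DR1 represented by a pair of probe sets and 4 probe sets without a gene symbol.

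Gene expression was measured on Affymetrix bovine arrays in corpora lutea of 12 sheep (Ovis aries), 1 array per ewe. The 4 groups, of 3 ewes each, were day 12 pregnant, day 12 non-pregnant, day 14 pregnant and day 14 non-pregnant. The pregnant groups came from ewes bred to a fertile ram, and the non-pregnant groups from ewes that were not bred and whose cycle day was followed by heat checks with a vasectomized ram. No strain, age or further treatment was given in the labels used, and the tissue was whole snap-frozen gland. Fewer cells of a type and less RNA per cell therefore cannot be told apart in any value below. The luteal genes STAR, CYP11A1, HSD3B1, LHCGR, PTGFR, OXT and INHA, which mark this tissue, were all above the dim level (3.59, the 25th percentile of probe set means) on all 12 arrays.

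The corpus luteum forms from the ovulated follicle and secretes progesterone, which keeps the uterus able to carry a conceptus. In a ewe without a conceptus, pulses of prostaglandin F2-alpha from the uterus bring about luteolysis, in which progesterone secretion falls and the gland regresses. In a pregnant ewe the elongating conceptus secretes interferon tau, which restrains those pulses and reaches other organs, where interferon-stimulated genes respond. The gland is densely vascular, and endothelial cells are among its most numerous cells.

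Values are the deposited log2 levels, differences are pregnant minus non-pregnant on that scale, and ± gives the standard error of the fit. Array medians lay between 5.16 and 5.24. The description labels name a gene array for 4 arrays, called batch A here, and a genome array for the other 8, called batch B, and the batch was a term of the model. Of the day 14 arrays, 1 of the pregnant and 2 of the non-pregnant ewes were in batch A, and of the day 12 arrays 1 of the pregnant ewes was. The first principal component of all probe sets, which took 29.6% of the variance, set the 3 day 14 non-pregnant arrays apart at 18.1, 33.7 and 40.4, against -13.0 to -7.0 for the other 9. The difference between 3' and 5' probe sets of the actin and GAPDH controls, a measure of RNA integrity and labelling, was higher in pregnant ewes on both days. It lay at 1.57 to 1.60 in pregnant and 1.42 to 1.47 in non-pregnant ewes on day 12, and at 1.44 to 1.60 and 1.29 to 1.43 on day 14, so the groups did not overlap within either day (difference 0.138, two-sided exact permutation within days, p = 0.005, the smallest the design allows, and 0.015 after adjustment over 3 measures). GAPDH alone differed by 0.207 (exact permutation, p = 0.02, adjusted 0.03) and actin alone by 0.0683 (exact permutation, p = 0.38). The part of this difference in the results cannot be told apart from that of pregnancy and was not tested. A fit that holds it as a covariate is given below as a description.

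Over both days, the 14 probe sets past the threshold were 0.0583% of those tested. The 13 lower ones were 0.0541% and the 1 higher one 0.00416%. At an unadjusted p under 0.05 there were 3368 probe sets, 1830 higher and 1538 lower. All 14 met the rule on sign and size, and since that rule reads the same arrays as the fit, this count is a description. Their falls ranged from -1.35 to -0.52 on the log2 scale, and mean levels from 4.70 to 8.97, so none was dim. The pregnant and non-pregnant groups did not overlap on day 12 nor on day 14 for any of the 14, and over all 12 arrays, with the days mixed, 11 of the 14 still had every pregnant ewe on one side. Against that, 265 of all probe sets (1.10%) were higher and 234 (0.974%) lower without overlap on each day, and 113 (0.471%) and 102 (0.425%) without overlap over all 12 arrays.

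**Figure D1:**
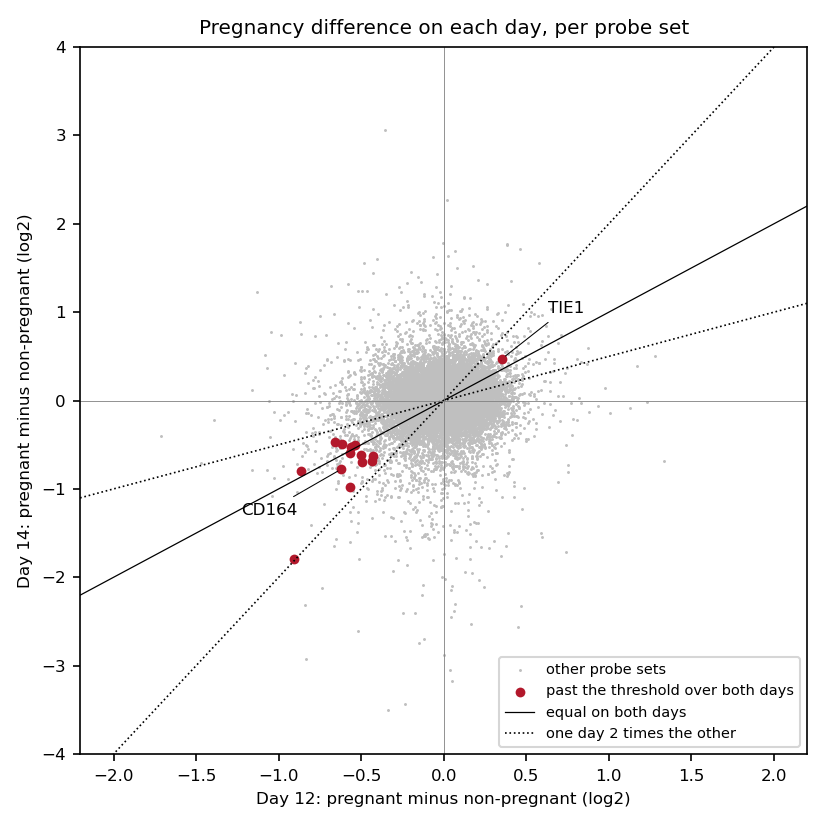
Pregnant minus non-pregnant difference on day 12 (x axis, log2) against that on day 14 (y axis, log2), 1 point per probe set; 2 probe sets lie outside the axes. The 14 probe sets past the threshold (red) lie between the dotted lines, on which the difference of one day is 2 times that of the other, with 13 in the lower left and TIE1 in the upper right.

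CD164, the sialomucin endolyn found on endosomes, lysosomes and the cell surface, gave the smallest p of the members. On day 12 its level was 7.73, 7.61 and 7.71 in pregnant ewes and 8.25, 8.31 and 8.27 in non-pregnant ewes. On day 14 it was 7.90, 7.71 and 7.83 in pregnant ewes and 8.51, 8.73 and 8.61 in non-pregnant ewes. Every pregnant ewe of either day lay below every non-pregnant ewe of either day. CD164 fell by 0.70 ± 0.064, a 1.62-fold lower level (limma, adjusted p = 0.00271), with day differences of -0.62 and -0.77. The difference between the days was -0.16 with a 95% interval of -0.45 to 0.14. The pregnant minus non-pregnant difference was -0.61 within day 12 batch B, -0.70 within day 14 batch B and -0.84 within day 14 batch A. Of the probe sets with a symbol, 1 is for CD164. A probe set without a symbol from the same cluster, Bt.21844.2.S1_at, was -0.18 on day 12 and -0.20 on day 14. It was also without overlap over all 12 arrays, but it did not pass (-0.19 ± 0.055, limma, adjusted p = 0.168). This probe set was brighter than the CD164 one (mean level 11.8 against 8.10) and differed far less.

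The other 13 members all had an adjusted p of 0.0485 in limma. The named ones are regulators of transcription (DR1, ATF1, BRMS1L), proteins of vesicle traffic (SEC23A, RAB6A), a phosphatase inhibitor (PPP1R2), a membrane protein (SMIM14) and an endothelial receptor (TIE1).

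DR1 encodes a repressor of transcription that binds the TATA-binding protein. Its probe set Bt.19962.1.S1_at was at 6.69, 6.93 and 6.60 in pregnant against 7.71, 7.63 and 7.59 in non-pregnant ewes on day 12, and at 7.33, 6.72 and 6.67 against 7.52, 7.70 and 7.77 on day 14. The groups did not overlap, but the first of the day 14 pregnant ewes lay nearer to the non-pregnant ones than the other pregnant ewes did. The fall was 1.78-fold (-0.83 ± 0.11, with -0.86 on day 12 and -0.80 on day 14). The second DR1 probe set, Bt.24253.2.S1_at, fell by 0.54 ± 0.077 (-0.56 and -0.52), also without overlap over the 12 arrays. The remaining DR1 probe set was -0.27 with an adjusted p of 0.166.

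ATF1, a transcription factor of the CREB family that binds cAMP response elements, fell by 0.55 ± 0.085, with -0.61 on day 12 and -0.49 on day 14. Its levels in pregnant ewes were 6.02, 5.92 and 5.76 on day 12 and 6.23, 5.76 and 5.98 on day 14. In non-pregnant ewes they were 6.60, 6.52 and 6.49 on day 12 and 6.43, 6.37 and 6.57 on day 14, all above the highest pregnant ewe. BRMS1L, a subunit of the Sin3 histone deacetylase complex, was at 5.39, 5.54 and 5.18 against 5.93, 6.16 and 6.20 on day 12 and at 5.76, 5.48 and 5.49 against 6.09, 5.78 and 6.07 on day 14. It fell by 0.56 ± 0.084 (-0.66 and -0.47), and the margin between the lowest non-pregnant and the highest pregnant ewe was narrow on day 14.

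SEC23A is part of the COPII coat that carries newly made proteins out of the endoplasmic reticulum. On day 12 it was at 5.19, 5.18 and 4.91 in pregnant and 5.80, 5.78 and 5.52 in non-pregnant ewes, and on day 14 at 5.52, 5.26 and 5.09 against 5.74, 5.69 and 5.77. The groups were apart within each day, but not over all 12 arrays, where the highest pregnant and the lowest non-pregnant ewe met. The fall was 0.52 ± 0.077, nearly equal on the 2 days (-0.54 and -0.50).

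RAB6A, a small GTPase of traffic at the Golgi, was at 6.60, 6.69 and 6.42 in pregnant against 7.17, 6.92 and 7.15 in non-pregnant ewes on day 12, and at 6.85, 6.62 and 6.50 against 7.38, 6.99 and 7.25 on day 14. It fell by 0.53 ± 0.078 (-0.43 and -0.63) without overlap over all 12 arrays. PPP1R2, inhibitor-2 of protein phosphatase 1, was at 5.32, 5.28 and 4.91 against 5.85, 5.60 and 5.71 on day 12 and at 5.39, 5.01 and 5.22 against 5.91, 5.82 and 5.81 on day 14. All 6 pregnant ewes were below all 6 non-pregnant ewes, and the fall was 0.60 ± 0.088 (-0.50 and -0.69). SMIM14, a small integral membrane protein, was at 7.01, 7.18 and 6.69 against 7.53, 7.42 and 7.49 on day 12 and at 7.19, 7.21 and 7.42 against 7.85, 7.93 and 7.81 on day 14. Its fall was 0.56 ± 0.085 (-0.50 and -0.61), with the groups apart on each day only.

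TIE1, a receptor tyrosine kinase of endothelial cells that acts with TEK, the receptor of the angiopoietins, was the 1 probe set that rose. It was at 7.34, 7.17 and 7.44 in pregnant and 6.92, 6.97 and 6.85 in non-pregnant ewes on day 12, and at 7.10, 7.02 and 7.15 against 6.54, 6.76 and 6.68 on day 14. Every pregnant ewe lay above every non-pregnant ewe, although both groups were lower on day 14. The rise was 1.33-fold (0.41 ± 0.060), with 0.35 on day 12 and 0.48 on day 14, and within batches it was 0.34, 0.51 and 0.43.

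The 4 members without a symbol were lower. Bt.28189.2.S1_at showed the largest fall, -1.35 ± 0.21, and was the member nearest the size limit, with -0.91 on day 12 and -1.79 on day 14. It was at 5.92, 5.83 and 6.08 against 7.0, 6.97 and 6.93 on day 12 and at 6.52, 6.22 and 5.79 against 8.29, 7.08 and 8.19 on day 14. A second probe set of its cluster, Bt.28189.1.S1_at, was -0.12 on day 12 (-0.60 over both days, adjusted p = 0.158). The remaining 3 were Bt.28817.1.A1_at (-0.77), Bt.16124.2.S1_at (-0.58) and Bt.21985.1.S1_at (-0.56). A dim probe set of the cluster of Bt.16124.2.S1_at, Bt.16124.1.A1_at (mean level 3.19), was -0.14 over both days (limma, adjusted p = 0.453).

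**Figure D2:**
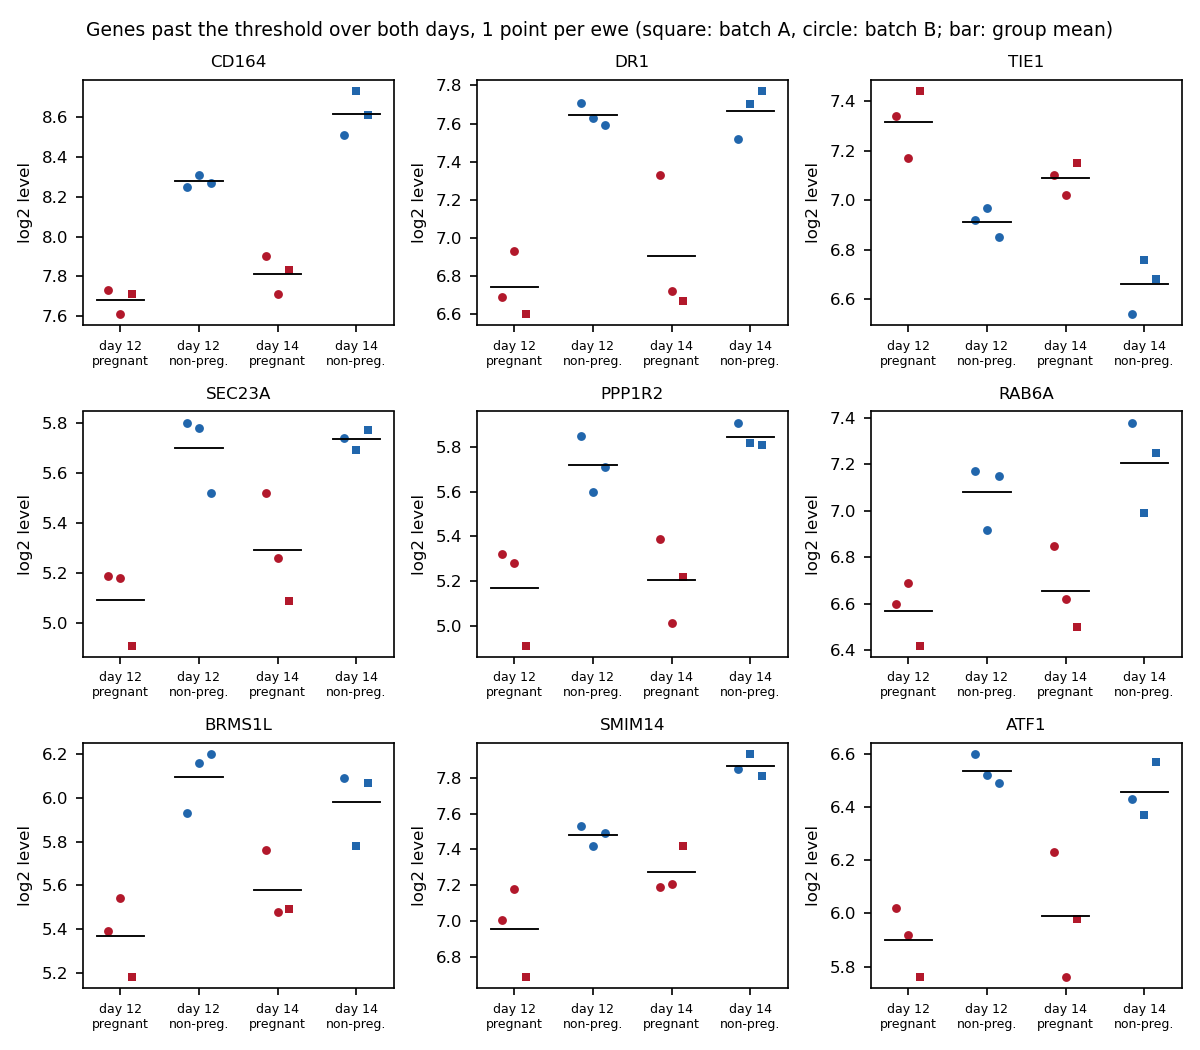
Log2 level (y axis) of the 9 named genes in each of the 12 ewes by group, with squares for batch A, circles for batch B and bars for group means; y axes do not start at 0 and differ between genes. TIE1 is higher and the other 8 genes are lower in pregnant ewes (red) on both days, without overlap on either day.

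By the rule that chose the members, the smaller day difference was 0.506 to 0.961 of the larger, with day 14 the larger for 9 members and day 12 for 5. None passed the test of the difference between days (limma, adjusted p between 0.499 and 0.986). That test reads the values by which the rule chose members alike on both days, so its outcome was largely fixed in advance. The 95% interval of the difference between days left out 0 for 1 of the 14, Bt.28189.2.S1_at (-1.72 to -0.052). An interval as wide as that of SEC23A (-0.34 to 0.41) does not show that its differences were equal. Tested on its own, day 14 passed for 9 of the 14 and day 12 for none. The unadjusted p in limma lay between 2.69e-05 and 0.00470 on day 12 and between 3.12e-06 and 0.00272 on day 14. These p-values come from the arrays that chose the members and add no support. All 14 had the same sign within day 12 batch B, day 14 batch B and day 14 batch A. That had to follow, because their groups did not overlap on either day. Of the 9 genes, 6 had 8 further probe sets, and all 8 were of the same sign on both days, 6 of them at an unadjusted p under 0.05. Of all probe sets, 47.1% were of opposite sign on the days and 14.0% had an unadjusted p under 0.05. In none of the 6 genes with further probe sets, though, was the brightest probe set of the gene a member. That probe set differed less than the members did, and far less for SEC23A, RAB6A, BRMS1L and ATF1. It was -0.12 for SEC23A (limma, adjusted p = 0.471), -0.18 for RAB6A (0.316), -0.067 for BRMS1L (0.665) and -0.19 for ATF1 (0.341). For DR1 it was -0.27 (0.166) and for PPP1R2 -0.45 (0.148). The other BRMS1L probe set was -0.31 (adjusted p = 0.0605), and the other ATF1 one was -0.50 on day 12 and -0.020 on day 14. The brightest PPP1R2 probe set was -0.70 on day 12 and -0.21 on day 14 (limma over both days, adjusted p = 0.148). Another probe set of that cluster, Bt.17102.3.S1_at, does not carry the symbol and was -0.016 on day 12 and -0.19 on day 14 (limma over both days, adjusted p = 0.622). The probe sets of these genes thus disagree on the size of the difference. For CD164, TIE1 and SMIM14 no second probe set carries the symbol.

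Read by day, the whole table looked different. On day 12 alone 0 probe sets (0%) passed in limma, with 1847 at an unadjusted p under 0.05 and a lowest adjusted p of 0.162. On day 14 alone 348 passed (1.45%), 129 higher and 219 lower. By sign and size, 23 of those 348 were shared, 187 were larger on day 14 and 138 had opposite signs on the days. The test of the difference between days passed for 21 (0.0874%), 6 with a more positive and 15 with a more negative difference on day 14. Over all 24016 probe sets 5187 (21.6%) were shared, 4500 (18.7%) larger on day 14, 3017 (12.6%) larger on day 12 and 11312 (47.1%) of opposite sign.

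A fit with a mean for each group, in which the residual spread no longer holds differences between the days, gave 208 probe sets past the threshold for the average of the days (0.866%). All 14 members were among them. Of the 208, 78 were shared, 97 larger on day 14, 12 larger on day 12 and 21 of opposite sign. By construction, the day-blocked fit leaves a difference seen on day 14 alone partly in the residual spread.

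Genes of steroid synthesis and of the interferon response are set beside the members here as reference genes. STAR, which moves cholesterol into mitochondria for progesterone synthesis, was at 12.98, 12.91 and 13.18 in pregnant and 13.06, 13.03 and 13.06 in non-pregnant ewes on day 12, and at 13.12, 13.11 and 13.13 against 12.68, 12.18 and 12.21 on day 14. Only the day 14 non-pregnant ewes were low, with a difference of 0.0012 on day 12 and 0.74 on day 14 (0.37 over both days, adjusted p = 0.242). CYP11A1 (0.16 and 0.43) and HSD3B1 (0.12 and 0.62), the enzymes that follow STAR, were likewise larger on day 14 by size. They did not pass over both days (limma, adjusted p of 0.144 and 0.182). The difference between days did not pass for STAR, CYP11A1 or HSD3B1 (limma, adjusted p of 0.272, 0.627 and 0.475). LHCGR, the luteinizing hormone receptor, was -0.27 on day 12 and 1.03 on day 14, and -0.37 and 0.37 by its brightest probe set.

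PTGFR, the prostaglandin F2-alpha receptor through which luteolysis is triggered, was 0.51 on day 12 and 0.65 on day 14, alike in size but with overlap on both days (0.58 ± 0.16, adjusted p = 0.159). Its other probe sets were less alike, at 0.26 and 0.77 and at 0.0081 and 0.66. OXT, the oxytocin made by large luteal cells, was 0.11 and 0.063 (0.087 ± 0.069, adjusted p = 0.613).

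SCARB1, the receptor that takes up cholesterol from high-density lipoprotein, had a different pattern from STAR. It was at 11.06, 10.92 and 10.99 in pregnant against 10.68, 10.58 and 10.66 in non-pregnant ewes on day 12, and at 10.73, 10.95 and 10.62 against 10.60, 10.17 and 9.89 on day 14. The groups were apart on both days, narrowly on day 14, with differences of 0.44 and 0.45 (0.45 ± 0.087), but the adjusted p of 0.0727 missed the threshold. SREBF2, a transcription factor of cholesterol synthesis, was 0.32 and 0.43 (0.38 ± 0.078, adjusted p = 0.0847), and its second probe set was 0.081 (adjusted p = 0.575). SCARB1 and SREBF2 were chosen after their values were seen, as were PPP1CB, ATP6V1A, SAR1B, APLNR and the genes named from lists below, apart from the members, CD34, KDR, PSMB9 and THBS1, which the naming rule gave, and the reference genes STAR, CYP11A1, HSD3B1, LHCGR, PTGFR, OXT, VEGFA, ISG15 and MX1.

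MX1 and ISG15, antiviral proteins induced by interferon, differed in pattern. MX1 was at 5.78, 6.16 and 6.21 against 5.25, 5.71 and 5.49 on day 12 and at 6.51, 7.08 and 5.86 against 5.41, 5.23 and 5.42 on day 14. All 6 pregnant ewes were above all 6 non-pregnant ewes, with differences of 0.65 and 1.04 (0.84 ± 0.17, adjusted p = 0.0755). ISG15 was at 8.0, 8.21 and 8.13 against 8.22, 9.62 and 7.60 on day 12 and at 8.99, 10.20 and 8.75 against 8.16, 7.23 and 7.68 on day 14. The day 12 groups overlapped, as the non-pregnant ewes at 8.22 and 9.62 lay above all pregnant ewes and the one at 7.60 below them. The difference was -0.20 on day 12 and 1.46 on day 14 (0.63 over both days, limma, adjusted p = 0.485). For neither gene did the difference between days pass (adjusted p of 0.792 and 0.471).

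**Figure D3:**
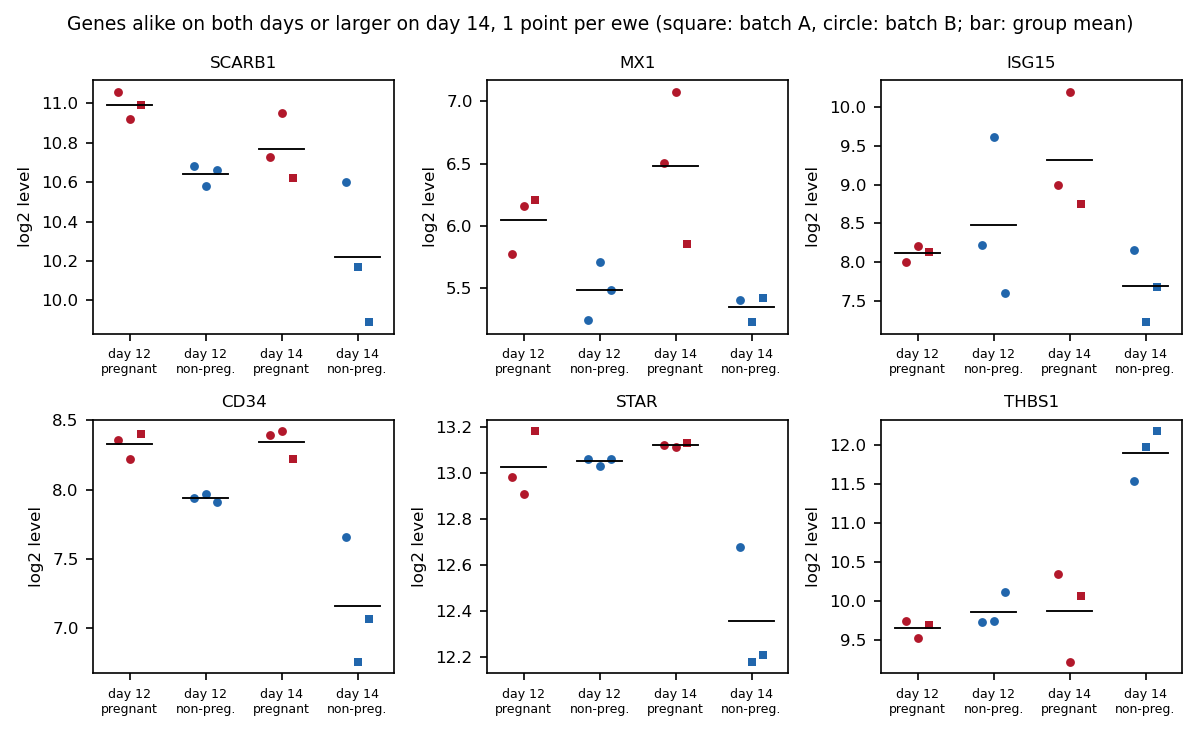
Log2 level (y axis) of 6 genes in each of the 12 ewes by group, with squares for batch A, circles for batch B and bars for group means; y axes do not start at 0 and differ between genes. SCARB1 and MX1 are higher in pregnant ewes on both days, CD34 more so on day 14, and in STAR and THBS1 the day 14 non-pregnant ewes stand apart from the other 3 groups.

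The endothelial and angiogenic lists were the only ones of 32 with a member past the threshold, TIE1, which stands in both. Of the genes counted by their brightest probe set, 3 of 9155 (0.0328%) passed. Among 16 endothelial genes measured, 2 were higher and 0 lower at an unadjusted p under 0.05, against 9.54% higher and 6.77% lower of all genes, and the median differences were 0.031 on day 12 and 0.087 on day 14 (all genes 0.028 and 0.026). CD34, a sialomucin of endothelial cells, was at 8.36, 8.22 and 8.40 against 7.94, 7.97 and 7.91 on day 12 and at 8.39, 8.42 and 8.22 against 7.66, 6.76 and 7.07 on day 14. It was higher without overlap on both days but more so on day 14 (0.48 and 1.09), and it did not pass (0.78 ± 0.13, limma, adjusted p = 0.0580). The difference between days did not pass for CD34 either (limma, adjusted p = 0.433). KDR, the main receptor of VEGF in endothelium, was 0.15 ± 0.072 (adjusted p = 0.385). Its mean level of 3.78 was close to the dim level of 3.59, and its other probe set was dim (2.18), so this value says little.

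The mean level of the endothelial list was 6.77 to 6.99 in pregnant and 6.88 to 6.90 in non-pregnant ewes on day 12, and 6.87 to 6.96 against 6.59 to 6.92 on day 14. The list as a whole overlapped between the groups on both days, which TIE1 did not. Among 25 angiogenic genes, 3 were higher and 3 lower at an unadjusted p under 0.05 (9.54% and 6.77% of all genes). THBS1, the angiogenesis inhibitor thrombospondin 1, was -0.31 on day 12 and -1.92 on day 14 by its brightest probe set. Over both days that probe set was -1.12 ± 0.27 (adjusted p = 0.112). The THBS1 probe set with the smallest p was -0.84 and -2.31 (adjusted p = 0.0580). The remaining ones differed far less, at -0.41 and -0.22, -0.020 and -0.85, 0.025 and 0.18, and -0.012 and 0.096. Of the 6 THBS1 probe sets, 4 were lower over both days, so they disagree in sign and in day pattern. VEGFA was -0.0068 and 1.79 by its brightest probe set and 0.33 and 0.99 by the other (adjusted p of 0.198 and 0.130 over both days).

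No other list had a member past the threshold. Progesterone synthesis and cholesterol supply had 8 of 20 genes higher and 1 lower at an unadjusted p under 0.05 (9.54% and 6.77% of all genes). Its medians were 0.033 on day 12 and 0.20 on day 14. Cholesterol biosynthesis had 11 of 18 genes above 0 on both days and 1 below (3018 and 1901 of all 9155 genes), with medians of 0.18 and 0.15, the only list of the 32 with both medians above 0.1. Its means were 0.12 on day 12 and 0.24 on day 14, 3 of the 18 genes were higher and 0 lower at an unadjusted p under 0.05, and the median over both days moved between 0.13 and 0.27 with 1 ewe left out. The list's mean level overlapped between the groups on both days (8.62 to 9.14 against 8.59 to 8.96 on day 12 and 8.84 to 8.90 against 8.24 to 8.97 on day 14). SCAP, the escort of SREBP proteins, was 0.33 and 0.37, and DHCR7, the last enzyme of the pathway, 0.29 and 0.51 (adjusted p of 0.177 and 0.225).

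Class I antigen presentation had 8 of 15 genes higher and 0 lower at an unadjusted p under 0.05 (9.54% and 6.77% of all genes), and 11 above 0 on both days, with medians of 0.077 and 0.27. PSMB9, a subunit of the immunoproteasome, was at 9.96, 9.96 and 9.62 against 9.60, 9.63 and 9.31 on day 12 and at 9.89, 10.05 and 9.87 against 9.70, 9.20 and 8.94 on day 14. The day 12 groups just overlapped, and the differences were 0.45 and 0.54 (0.49 ± 0.090, adjusted p = 0.0605). PSMB10, another such subunit, was 0.38 and 0.34 (adjusted p = 0.162). The interferon-stimulated list had 18 of 39 genes higher and 0 lower at an unadjusted p under 0.05, with medians of -0.050 on day 12 and 0.54 on day 14. None of the 39 passed the test of the difference between days.

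Lysosome and autophagy had 6 of 28 genes lower and 2 higher at an unadjusted p under 0.05 (6.77% and 9.54% of all genes). The list medians were near 0, at -0.020 on day 12 and -0.049 on day 14. On both days 12 genes were below 0 and 8 above (1901 and 3018 of all 9155 genes). Of the 28, 4 were lower without overlap on both days, where 1.05% of all genes were lower and 1.58% higher without overlap. ATG3, which joins LC3 proteins to lipid, was -0.34 and -0.33 (adjusted p = 0.0878). SQSTM1, the autophagy receptor p62, was -0.45 and -0.55 (adjusted p = 0.105), with its second probe set at -0.15. MAP1LC3C was uneven, at -0.83 and -2.93.

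Unfolded protein response and heat shock had 13 of 24 genes below 0 on both days and 3 above (1901 and 3018 of all 9155 genes). Its medians were -0.011 on day 12 and -0.23 on day 14, and 11 of the 24 were larger on day 14 (1767 of all 9155). EIF2AK3, the endoplasmic reticulum stress kinase PERK, was -0.70 and -0.62 (-0.66 ± 0.16, adjusted p = 0.110). Prostaglandin genes had 1 of 11 higher and 2 lower at an unadjusted p under 0.05 (9.54% and 6.77% of all genes). The higher one was SLCO2A1, the prostaglandin transporter, at 6.86, 6.32 and 6.57 against 6.27, 6.21 and 6.18 on day 12 and at 6.55, 6.57 and 6.39 against 6.27, 5.34 and 5.35 on day 14. All 6 pregnant ewes were above all 6 non-pregnant ewes (0.49 and 0.73, adjusted p = 0.0847).

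Lists of other cells in the gland held no member past the threshold. Macrophage genes had medians of -0.076 and -0.077, but of -0.00045 over both days, which moved between -0.095 and 0.093 with 1 ewe left out. They had 4 of 16 lower and 0 higher at an unadjusted p under 0.05 (6.77% and 9.54% of all genes). Their list means were 5.90 to 5.95 against 5.63 to 6.04 on day 12 and 5.81 to 6.22 against 5.66 to 6.55 on day 14. Red blood cell genes had medians of 0.20 and 0.080, and their list means were 4.25 to 4.32 in pregnant against 4.02 to 4.21 in non-pregnant ewes on day 12, apart, and 4.05 to 4.22 against 4.04 to 4.31 on day 14, overlapping. The part of these cells in the members' differences was not tested.

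**Figure D4:**
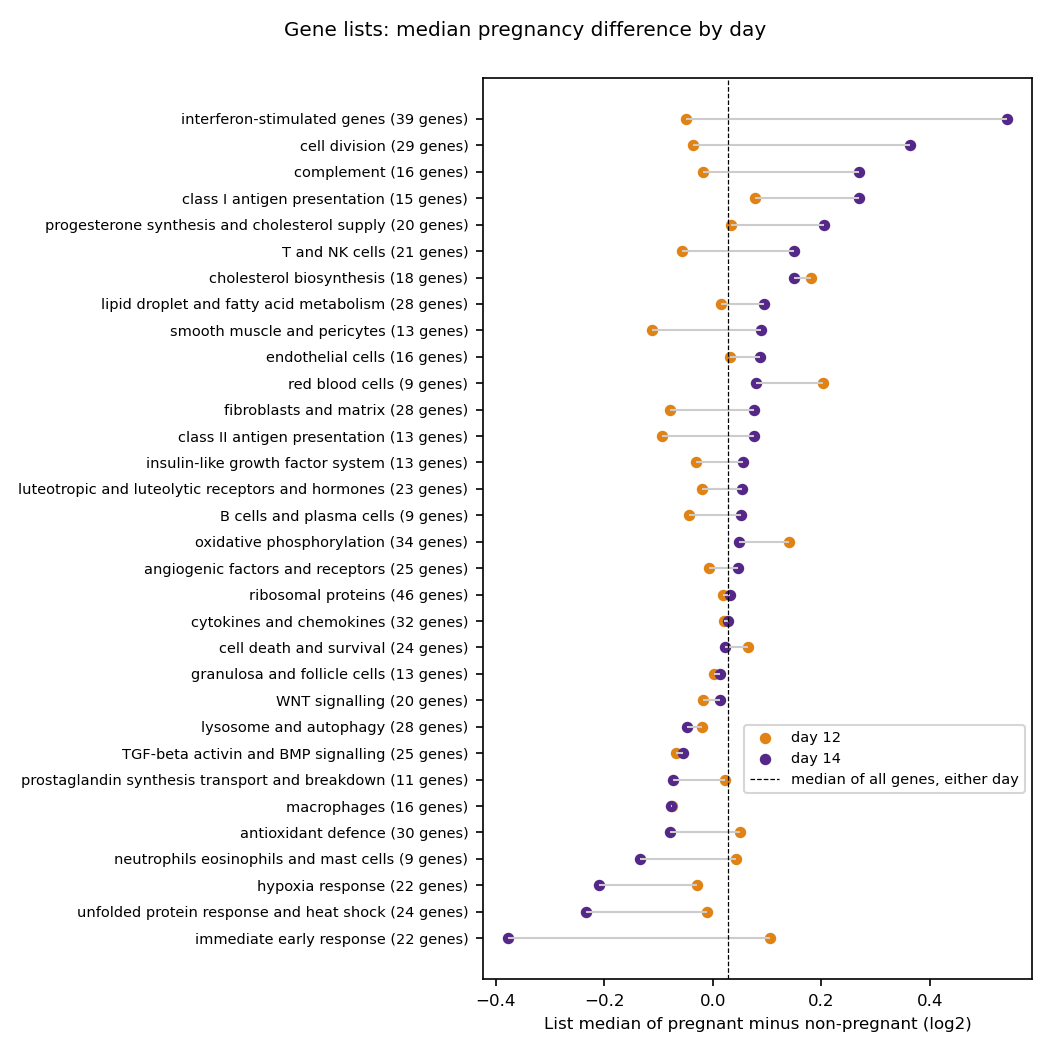
Median pregnant minus non-pregnant difference (x axis, log2) of each of the 32 gene lists on day 12 (orange) and day 14 (purple), with the number of genes measured in brackets and the median of all genes dashed. The medians of cholesterol biosynthesis are 0.18 and 0.15, and those of interferon-stimulated genes -0.050 and 0.54 and of cell division -0.036 and 0.36; the difference between days was not tested for any list.

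Just past the threshold, 38 further probe sets had an adjusted p of 0.06 or less, the lowest at 0.0534. Among shared probe sets, the higher named genes with the smallest p after TIE1 were FXR2, SGSH, CITED4, PSMB9 and ECE1. FXR2, an RNA-binding relative of the fragile X protein, was 0.41 and 0.50 (adjusted p = 0.0580). SGSH, a lysosomal enzyme that breaks down heparan sulfate, was 0.46 and 0.55 (adjusted p = 0.0580). CITED4, a coactivator that binds CBP and p300, was 0.53 and 0.79 (adjusted p = 0.0580), and ECE1, which cleaves big endothelin to its active form, 0.38 and 0.56 (adjusted p = 0.0605). The other 2 ECE1 probe sets were 0.26 and 0.14 over both days.

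FXR2, SGSH, CITED4 and ECE1 had every pregnant ewe above every non-pregnant ewe. Over the 12 ewes FXR2 was at 7.32, 7.52 and 7.60 against 6.97, 7.07 and 7.13 on day 12 and at 7.27, 7.60 and 7.44 against 6.98, 7.0 and 6.86 on day 14. CITED4 was at 8.71, 8.55 and 8.24 against 8.16, 8.18 and 7.99 on day 12 and at 8.68, 8.28 and 8.36 against 7.97, 7.02 and 7.57 on day 14.

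At an adjusted p under 0.1, a limit chosen after the data were seen, 52 probe sets were higher (0.217%) and 139 lower (0.579%), of 124 named genes. Of the 191, 144 were shared, 39 larger on day 14 and 8 larger on day 12. PPP1CB, a catalytic subunit of the phosphatase that PPP1R2 inhibits, was -0.67 on day 12 and -0.63 on day 14 (adjusted p = 0.0580), and its other 2 probe sets were -0.077 and -0.080 over both days. ATP6V1A, a subunit of the proton pump of lysosomes, was lower by a pair of probe sets (-0.73 and -0.43, adjusted p of 0.0534 and 0.0580), while its other 2 were -0.15 and 0.089. SAR1B, the GTPase that recruits SEC23 to COPII vesicles, was -0.42 and -0.53 (adjusted p = 0.0729).

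APLNR, the apelin receptor of endothelial cells, was 0.58 and 0.43 (adjusted p = 0.0678). At the size limit, ADAM10 lay just inside with -0.23 and -0.46 (0.503 of the larger), and FMO2 just outside with 0.87 and 0.42 (0.482).

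The number of members depended on the setting of the fit. Without the batch term 2 probe sets passed, and with batch as a random block 2, CD164 and DR1 Bt.19962.1.S1_at. With batch B arrays alone, 8 of the 12, limma passed 0, with 2554 at an unadjusted p under 0.05. Array weights gave 36 and centring each array on its median 56, and in both all 14 passed, although after centring 1 of the 14 no longer met the rule on size, which left 13. With the 3' minus 5' difference as a covariate limma passed 0, the lowest adjusted p was 0.915, and 1261 probe sets (5.25%) had an unadjusted p under 0.05, against 14.0% without it. In that fit the 14 differences kept their sign and 67.0% to 101% of their size, all 14 had an unadjusted p under 0.05, and the median standard error was 1.83 times that without it. CD164 was -0.64 ± 0.12 there and TIE1 0.42 ± 0.11. The covariate fit does not separate the 3' minus 5' difference from pregnancy, since the groups did not overlap in it within either day.

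Leaving out 1 ewe at a time left 1 probe set past the threshold, except without the first day 14 non-pregnant ewe, where there were 2. The other exception was a count of 80 without the first day 14 pregnant ewe. Its 3' minus 5' difference of 1.44 was the lowest of the pregnant ewes, but the cause of the higher count was not tested. CD164 passed in all 12 of these fits, with adjusted p of at most 0.0247 and differences between -0.72 and -0.67. DR1 Bt.19962.1.S1_at passed in 2 of the 12 and each other member in 1.

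**Figure D5:**
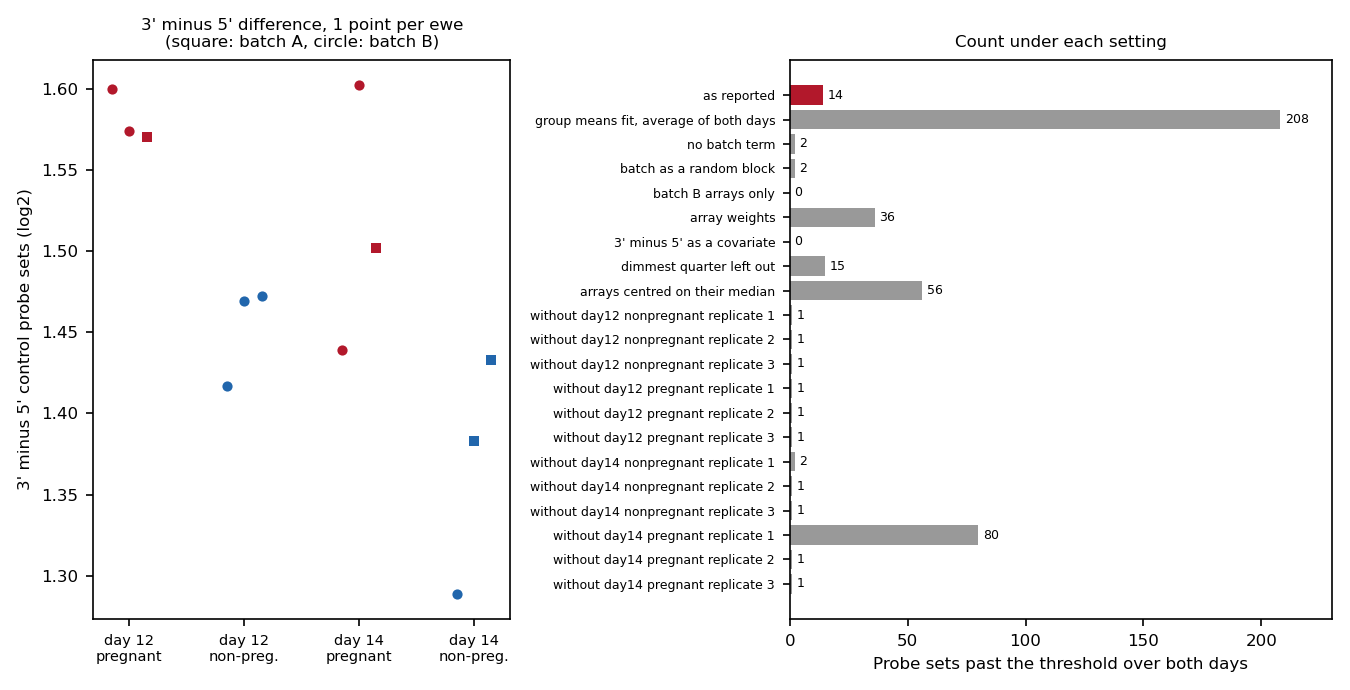
Left, 3' minus 5' difference of the control probe sets (y axis, log2) in each of the 12 ewes by group, with squares for batch A and circles for batch B; the pregnant ewes (red) lie above the non-pregnant ones (blue) within each day. Right, number of probe sets past the threshold over both days (x axis) in the reported fit (14, red) and under other settings (grey), from 0 to 208.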

How the data were processed

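The deposited table holds log2 values. Per the submitters' processing notes the authors made them by RMA, run with Affymetrix Expression Console, of a version not given in the sources used here. The method corrects background, equalises arrays by quantiles and summarises probes on the log2 scale, without detection calls. Sheep RNA on bovine probes gives lower signal where the sequences differ, which limits any comparison of levels between probe sets. Such levels were compared only to pick each gene's brightest probe set and to set the dim level.

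Groups came from the source label. Titles conflicted with it for 9 of 12 arrays and were not used. Replicate numbers follow accession order. From 24128 probe sets 112 controls were left out, and 13292 of the 24016 tested had 1 symbol in GEO's platform annotation (10638 none, 86 several). Models were fitted with limma 3.58.1 in R 4.3.3, two-sided, with Benjamini-Hochberg adjustment over all probe sets. The main model held pregnancy, day and batch (8 residual and 4.23 prior degrees of freedom), and day 12, day 14 and their difference came from group means plus batch (7 and 4.39). The script was tested on simulated data. The number of arrays limits the precision.

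Named genes were the 12 largest shared changes past the threshold in each direction (where under 6 passed, the 6 with the smallest p), up to 3 members of each list with a passing member, 9 reference genes and both neighbours of the size limit, 1 probe set per gene by smallest p. Lists used each gene's brightest probe set. The members, lists and rules were chosen with earlier results of these data known. Alternatives covered the batch term, array weights, the covariate, dim probe sets, centring, the size limit and each ewe left out.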

Additional observations from a re-analysis of the deposited data

How the results depend on the processing

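The 14 probe sets past the threshold over both days became 208 in the group means fit (78 of them shared), 2 without the batch term and 2 with batch as a random block, 0 with batch B arrays only (2554 at an unadjusted p under 0.05), 36 with array weights (33 shared), 0 with the 3' minus 5' covariate, 56 with arrays centred on their median (47 shared) and 191 at an adjusted p under 0.1. The causes were not tested. Without the dimmest 25% of probe sets there were 15, and size limits of 0.4 and 0.6 gave 14 and 12 shared. Leaving out 1 ewe gave 1 to 80 (1 to 72 shared), 0 to 5 on day 12 (5 without day 14 pregnant ewe 1), 88 to 510 on day 14 and 1 to 76 for the difference between days. For day 14 there were 531 without the batch term, 141 with array weights and 9 with the covariate. The difference between days passed for 50 without the batch term, 50 with the random block and 10 with the covariate. The 499 probe sets without overlap on both days became 2723 in batch B, which holds 1 day 14 non-pregnant array, and 602 to 938 with 1 ewe left out. LHCGR turned to -0.078 in batch B and ISG15 to -0.11 with the covariate. Of the named genes' other values, 616 kept their side of the threshold, 194 lost it and 28 gained it. Only the 14 members were past the threshold in the reported fit, so all 194 losses were theirs. The other named probe sets had no pass to lose, and the 616 therefore say little about how stable the members were. No paired analysis was possible because the ewes' numbers follow the accessions only and tie no ewe of one group to one of another.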
